A study of Mus musculus with 16 samples.

Results

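The genes described here encode voltage-gated calcium channels, hyperpolarization-activated (HCN) channels and voltage-gated sodium channels, with their auxiliary subunits. A gene belonged to the set when its annotated symbol started with Cacna, Cacnb, Cacng, or with Hcn or Scn followed by a digit. One probe stood for each gene, the one with the highest mean over the 16 arrays in the series matrix, and that probe had to have a detection p-value under 0.05 on at least 3 arrays. Of 36 such genes on the array, 27 passed, among 12020 genes of the array with a probe that passed. Expression was measured on Illumina bead arrays from hippocampi of C57BL/6J males given Δ9-tetrahydrocannabinol (THC), the compound behind most effects of cannabis, or its vehicle, a mixture of ethanol, cremophor and saline, from a minipump under the skin. The 5 THC mice aged 12 months and the 3 THC mice aged 2 months had 3 mg per kg per day for 28 days, and 5 mice aged 12 months and 3 aged 2 months had vehicle for the same time. Behaviour was tested in all 4 groups on days 33 to 41, and the mice were killed on day 46, so each value was read after the drug had been stopped. One array is counted here as 1 mouse, and since the labels say only that they are separate samples, the p-values measure the spread between these samples.

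Voltage-gated calcium channels open when a neuron depolarizes and turn the electrical signal into calcium entry, which drives transmitter release at the terminal and gene regulation and plasticity in the dendrite. A pore-forming alpha-1 subunit sets the channel type (L, P/Q, N, R or T), and alpha-2-delta and beta subunits govern how many channels reach the membrane. Most of the gamma subunits are better known as transmembrane AMPA receptor regulatory proteins (TARPs), which carry AMPA-type glutamate receptors to the synapse. Sodium channels start and carry the action potential, and HCN channels carry a depolarizing current at rest that shapes how hippocampal dendrites add up their inputs. CB1, the receptor through which THC acts on neurons, is known to inhibit presynaptic calcium channels, which is an effect on channel activity and not on the amount of channel RNA.

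All values are log2 intensities after background correction and quantile normalization, and a difference understates the change of a dim probe. Levels of different probes cannot be set against each other. Between 41.1% and 45.9% of all probes were detected per array. Within a group, the Pearson r between arrays over all tested probes was 0.959 to 0.990. Precision is limited by how many arrays each group has. The arrays lay on 4 slides. The 4 arrays of slide 1 stood apart on the first principal component of all tested probes, at −50.2 to −33.7, against −0.87 to 31.3 on the other slides. For each of the 27 channel genes, the slide 1 arrays overlapped the others. Mean differences between slide 1 and the other slides ran from −0.34 for Scn2b to 0.60 for Scn4b.

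Of the calcium channel pores, Cacna1a (P/Q type) and Cacna1b (N type), the main channels of transmitter release, were detected on all 16 arrays, as were Cacna1d (L type) and the low-threshold T type genes Cacna1g and Cacna1h. Cacna1e (R type) was detected on 6 arrays. The L type gene Cacna1c was detected on only 2 arrays by the brightest of its 7 probes and so was left out, and so were Cacna1f, detected on 1 array, and Cacna1i, detected on 0. Failure of a probe to detect does not show absence of the RNA, since on these arrays the brightest probe of Snap25, an abundant synaptic gene, was detected on 0 arrays too. The alpha-2-delta genes Cacna2d1 and Cacna2d3 and the beta genes Cacnb2 and Cacnb4 were detected on 16 arrays and Cacnb1 on 15. Of the gamma genes, Cacng2, Cacng3 and Cacng5 were detected on 16 arrays, Cacng4 on 7, Cacng7 on 6 and Cacng8 on 3. Cacng8 lay just inside the detection limit, and Scn10a, a sodium channel gene best known from sensory neurons, followed with 4 arrays. Hcn2 and Hcn3, the sodium channel pores Scn1a, Scn2a, Scn3a and Scn8a and the beta subunits Scn2b, Scn3b and Scn4b were detected on 16 arrays. Scn11a was detected on 1 array, and Cacna2d4, Cacng1, Cacng6, Hcn4 and Scn7a on 0. In all, 21 of the 27 genes were detected on all 16 arrays, and 6 on 3 to 15.

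The channel genes varied between arrays of a group about as much as other probes. Their median within-group standard deviation was 0.27, against 0.26 over the 22625 probes tested. Scn4b, a beta subunit that shapes resurgent sodium current, was the most variable at 0.83, followed by Cacng5 at 0.37. Scn8a and Scn2a, the sodium channels of the axon initial segment, were among the steadiest at 0.14 and 0.16. Cacna1e was lower still at 0.10, but its probe was near the background, where values are compressed.

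**Figure D1:**
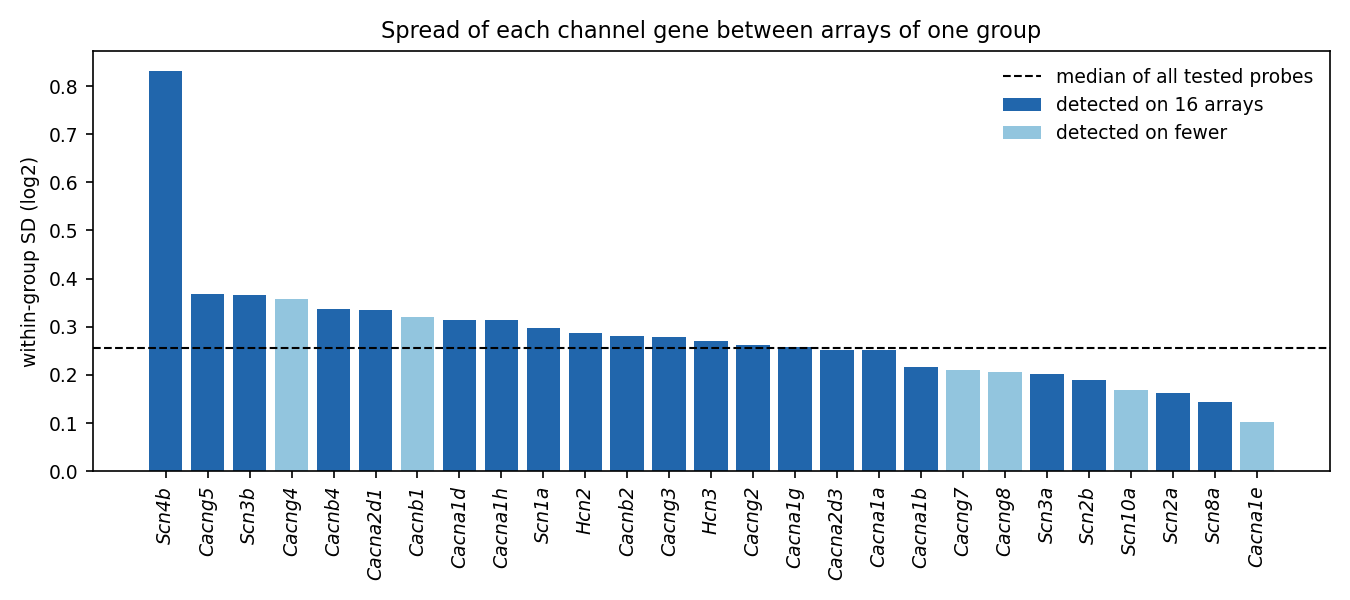
Within-group standard deviation (log2 intensity, 4 groups pooled) of each of the 27 channel genes, with the median of all 22625 tested probes as a dashed line. Scn4b stands at 0.83, and Scn8a and Scn2a at 0.14 and 0.16.

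Scn4b lay at 9.81, 7.49, 8.60, 8.69 and 8.90 in old THC mice (replicates 1 to 5) and at 8.39, 8.54, 7.23, 8.92 and 8.54 in old vehicle mice. In young THC mice it lay at 9.83, 8.24 and 8.76, and in young vehicle mice at 9.24, 8.56 and 7.02. The groups overlapped widely, and the span of 2.81 from the lowest to the highest array is 7.01-fold. THC against vehicle differed by 0.38 ± 0.45 (SE) at 12 months and by 0.67 ± 0.58 at 2 months, the largest difference of the 27 genes at 2 months, with limma adjusted p values of 0.928 and 0.834. On the slides that held both groups, Scn4b was higher on the THC arrays each time, by 1.35 and 0.37 on slides 1 and 4 at 12 months and by 1.27 and 1.73 on slides 2 and 4 at 2 months. With the slide as a fixed block the difference was 1.22 ± 0.45 at 12 months (limma adjusted p = 0.282) and 1.22 ± 0.48 at 2 months (limma adjusted p = 0.460). Each of these slides held 1 THC array of the age compared. The other detected Scn4b probe differed by 0.13 at 12 months and 0.0929 at 2 months. Markers of myelin and of the thalamus, tissue next to the hippocampus, were also high on the 2 arrays with the most Scn4b. On old THC replicate 1 and young THC replicate 1, the highest for Scn4b, the mean of the myelin markers was 11.8 and 11.9, against 10.4 to 11.5 on the other arrays, and that of the thalamus markers 8.10 and 8.67, against 6.61 to 7.91. The lowest arrays for Scn4b were not all low in thalamus markers, with 6.61 on young vehicle replicate 3 and 7.91 on old vehicle replicate 3. The mean of the striatum markers was highest on old THC replicate 1, at 8.23, but was 7.08 on young THC replicate 1. On young vehicle replicate 1, the next highest for Scn4b, the thalamus mean was 7.38 and the striatum mean 6.89. Of these lists, 7 of the 8 myelin, 10 of the 13 thalamus and 7 of the 8 striatum markers on the array were detected on at least 3 arrays. Ermn (myelin) and Synpo2 (thalamus) were detected on 0. In a bulk sample, a larger share of cells that carry a transcript and more of it per cell cannot be told apart, and the part of neighbouring tissue in the Scn4b values was not tested.

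**Figure D2:**
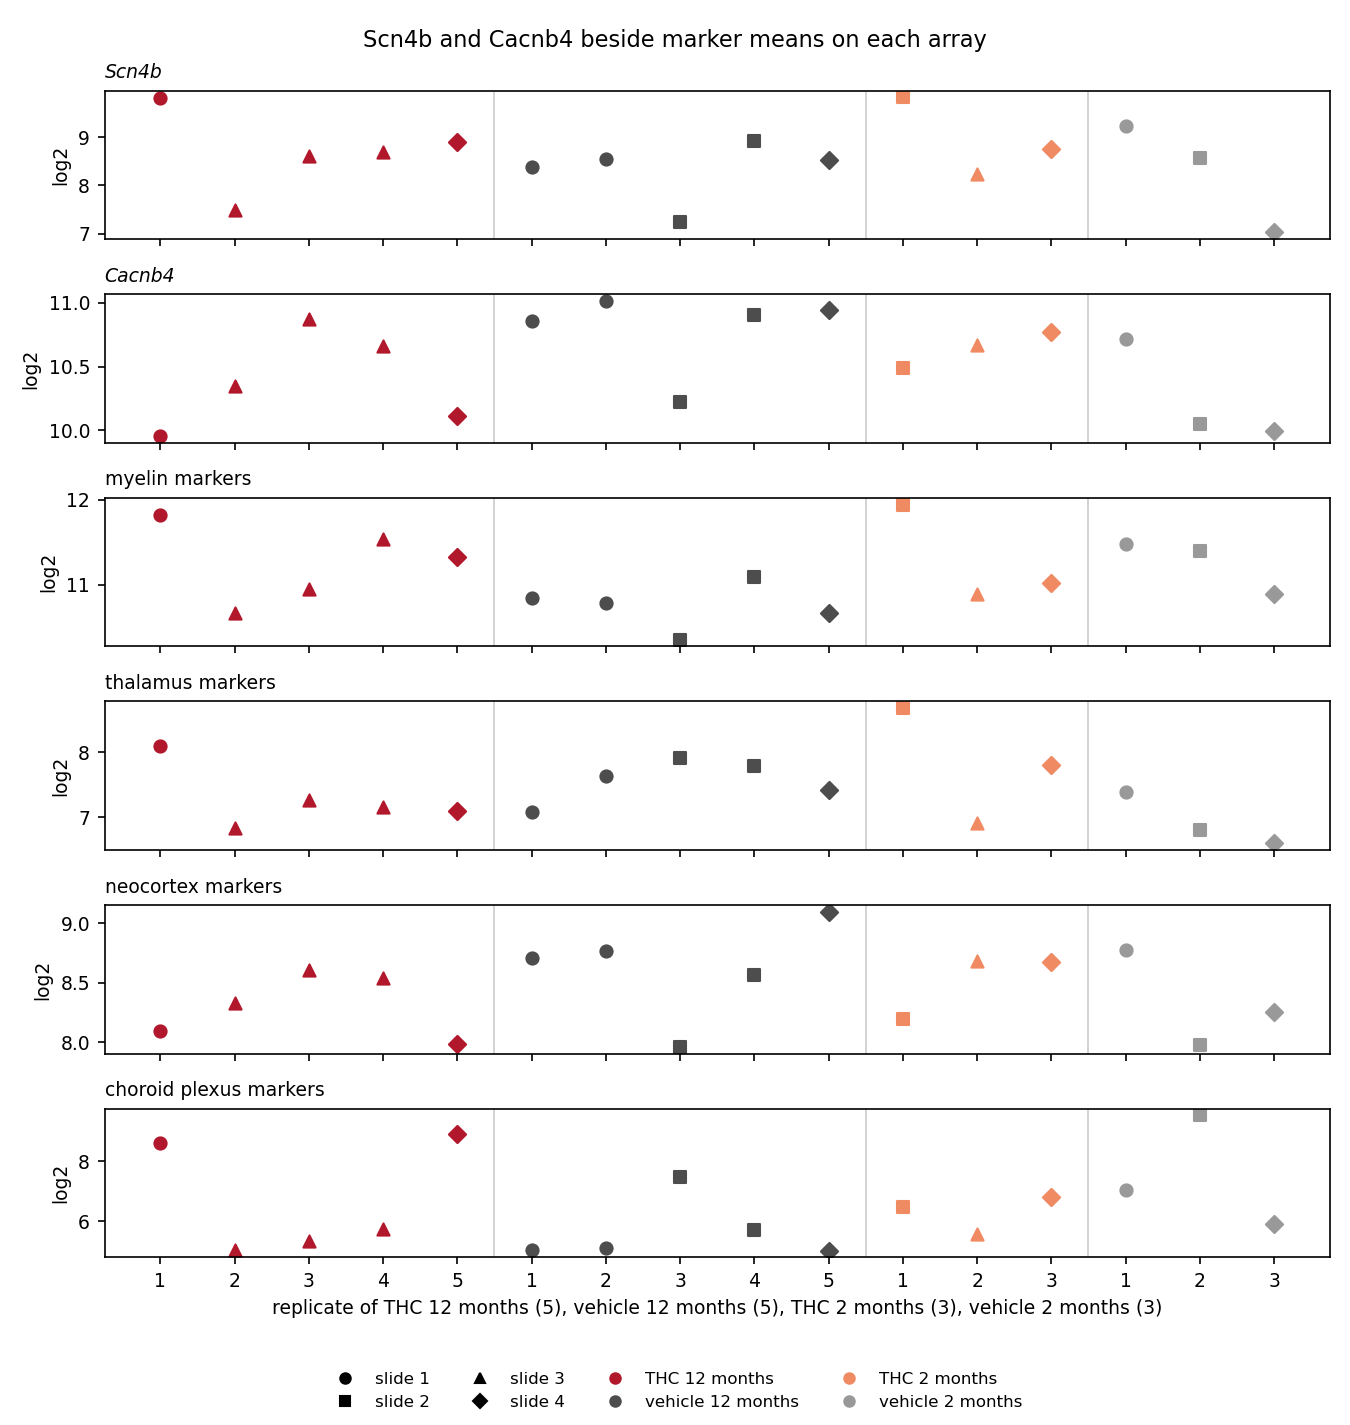
Log2 intensity of Scn4b and Cacnb4 and mean log2 intensity of 4 marker lists on each of the 16 arrays, in the order old THC, old vehicle, young THC, young vehicle, with the slide as the symbol. Scn4b is highest on the 2 arrays with the highest myelin and thalamus means, and Cacnb4 is low on arrays where choroid plexus means are high and neocortex means low.

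The label hippocampus was checked against markers. Of the pyramidal cell markers, 10 of the 11 on the array were detected on at least 3 arrays, and of the dentate granule cell markers 7 of 9, with Neurod6, Calb1 and Tdo2 on 0. Markers of other regions were detected too, 7 of 7 for neocortex, 7 of 8 for striatum and 10 of 13 for thalamus. Detection alone thus cannot show that the samples held hippocampus only. Choroid plexus markers, which belong to the tissue lining the ventricles, were detected on at least 3 arrays for 8 of 8 genes, and their mean differed most between arrays of the same group. It ran from 5.03 to 8.91 in old THC mice, from 5.02 to 7.46 in old vehicle mice, from 5.57 to 6.82 in young THC mice and from 5.90 to 9.53 in young vehicle mice.

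At 12 months, THC was set against vehicle to ask what the drug left behind in the older mice, the age group that the series title names. With limma, 0 of the 27 genes passed an adjusted p of 0.05 over all 22625 probes, as did 0% of all probes, and each of the 10 genes named below had an adjusted p of 0.916. At an unadjusted two-sided p under 0.05 there were 2 genes, Cacng3 and Cacnb2, or 7.41% of the 27, against 4.77% of all probes. With the slide as a fixed block there were 6, namely Cacna1d, Cacnb2, Cacnb4, Cacng3, Cacng4 and Scn4b, or 22.2%, against 11.5% of all probes. The median difference over the channel genes was −0.0352, against −0.00476 over all probes, with 12 genes above 0, or 44.4%, against 48.8% of all probes. Groups did not overlap for 0 of the 27 genes, against 0.628% of all probes.

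Cacng3 encodes a TARP of cortical and hippocampal neurons. It lay at 7.74, 8.12, 8.40, 8.33 and 8.12 in old THC mice and at 8.63, 8.62, 8.71, 8.37 and 8.97 in old vehicle mice. All old THC arrays but replicate 3 were below every old vehicle array. Old THC mice averaged 8.14 ± 0.26 and old vehicle mice 8.66 ± 0.22 (SD, n = 5 each), a log2 difference of −0.52 ± 0.17 (SE, as for every difference below), or 0.699-fold. Its other detected probe differed by −0.28, in the same direction. Within the slides that held both groups, slides 1 and 4, the difference was −0.89 and −0.84, and with the slide as a block it was −0.87 (limma adjusted p = 0.0514), just short of the threshold. Each of these slides held 1 old THC array, replicates 1 and 5, whose choroid plexus means were 8.61 and 8.91, where the remaining 3 of that group had 5.03 to 5.75. Adding the choroid plexus mean to the fit gave −0.46.

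Cacnb2 and Cacnb4, beta subunits that bring calcium channels to the membrane, had differences of opposite sign that did not pass the test. Cacnb2 lay at 8.98, 9.02, 8.74, 8.81 and 8.95 in old THC mice and at 8.56, 8.61, 9.00, 8.43 and 7.98 in old vehicle mice. Only old vehicle replicate 3 reached the THC range. The difference was 0.38 ± 0.17, or 1.30-fold, and 2 further Cacnb2 probes were at 0.17 and 0.27. Within slides 1 and 4 it was 0.39 and 0.97, and with the slide as a block 0.61 (limma adjusted p = 0.208). Cacnb4 lay at 9.95, 10.35, 10.87, 10.66 and 10.11 in old THC mice and at 10.86, 11.02, 10.22, 10.90 and 10.95 in old vehicle mice, a difference of −0.40 ± 0.20. The other 2 detected Cacnb4 probes went the other way, at 0.12 and 0.17, so its direction depends on the probe. Within slides 1 and 4 the brightest Cacnb4 probe differed by −0.98 and −0.83, and with the slide as a block by −0.70 (limma adjusted p = 0.194). The Cacnb4 values were low on the 4 arrays with the highest choroid plexus means, which were young vehicle replicate 2, old THC replicates 5 and 1 and old vehicle replicate 3, with 10.05, 10.11, 9.95 and 10.22, and also on young vehicle replicate 3 at 9.99, where the choroid plexus mean was 5.90. With that mean as a covariate the difference was −0.24, and with the mean of the neocortex markers −0.14. With the neocortex covariate Cacnb2 was at 0.18 and Cacng3 at −0.42. That covariate was added after the data had been seen, and the part of tissue content in these differences was not tested.

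The other genes named by p at 12 months had smaller differences or dim probes. Cacng4, a TARP, was detected on 4 of 5 old THC and 1 of 5 old vehicle arrays. It lay at 5.61, 4.83, 4.71, 4.90 and 5.72 in old THC mice, against 4.74, 4.77, 5.15, 4.65 and 4.44 in old vehicle mice, a difference of 0.40 ± 0.21. That difference rested on old THC replicates 1 and 5, the same 2 arrays as above, and it was 0.25 with the choroid plexus mean or 0.17 with the neocortex mean as a covariate. Within slides 1 and 4, whose old THC arrays are those same 2, it was 0.86 and 1.28, and with the slide as a block 0.76 (limma adjusted p = 0.155). Scn10a was detected on 0 of 5 old THC and 4 of 5 old vehicle arrays. It lay at 4.69, 4.70, 4.495, 4.59 and 4.77 in old THC mice and at 4.94, 5.03, 5.02, 4.47 and 4.89 in old vehicle mice, which is at least 1.02-fold higher in vehicle mice. Hcn3 differed by −0.28 ± 0.17 and Cacna1a by −0.25 ± 0.16, but their other detected probes lay at 0.03 and 0.24. Cacna1d lay at 6.00, 5.38, 5.56, 5.38 and 5.79 in old THC mice and at 5.39, 5.68, 5.16, 5.42 and 5.11 in old vehicle mice, which overlapped. It differed by 0.27 ± 0.19, with its other probes at −0.03 and −0.01, and by 0.67 with the slide as a block (limma adjusted p = 0.0692). Cacna1h differed by 0.24 ± 0.19 and Scn2b by 0.15 ± 0.13.

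**Figure D3:**
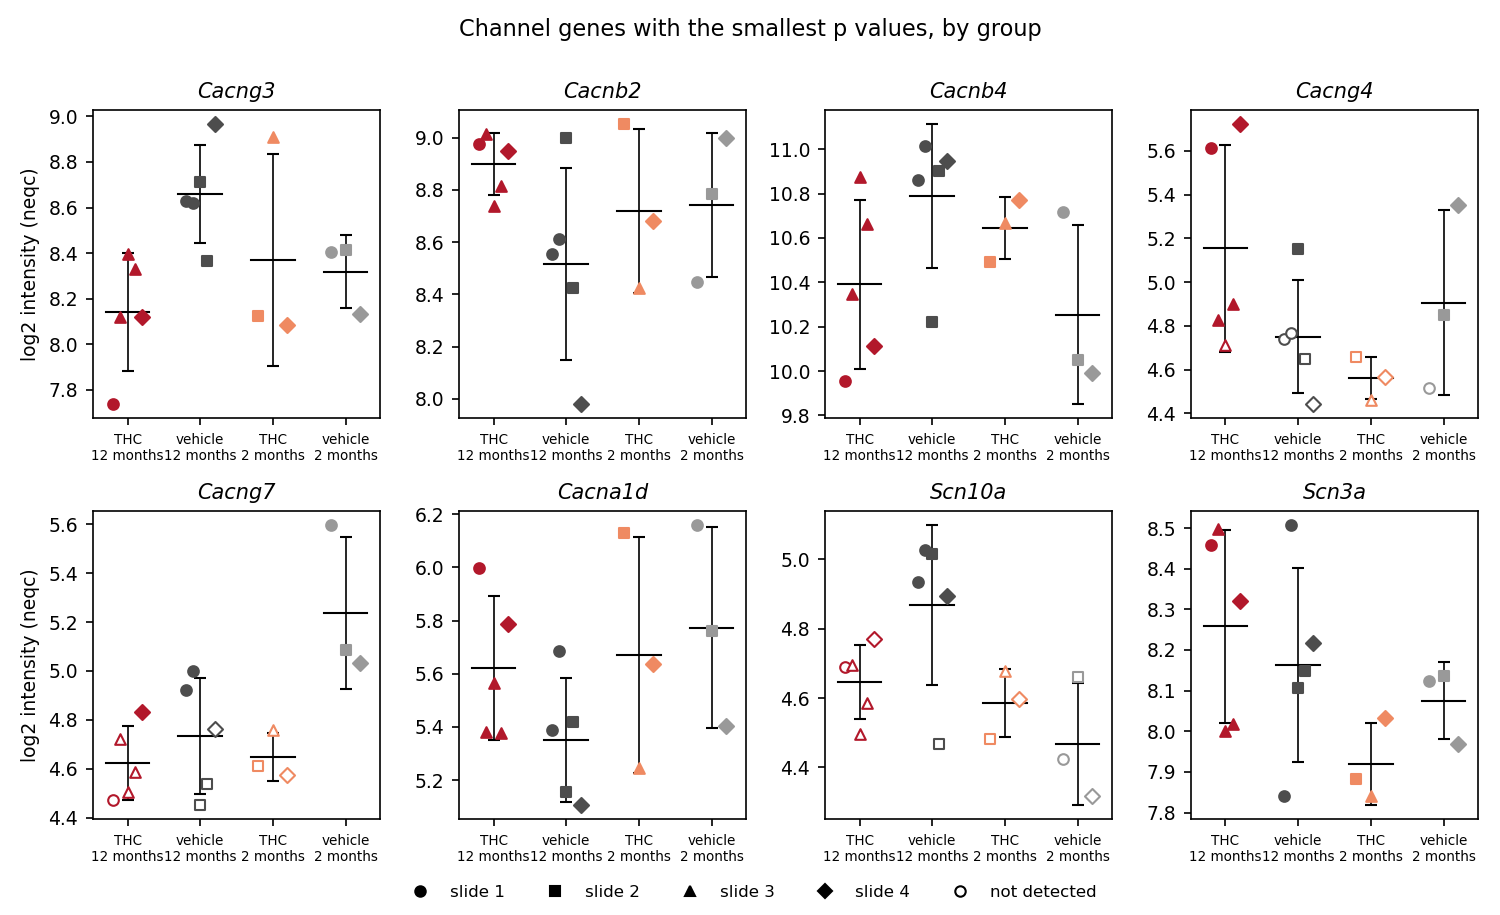
Log2 intensity of 8 channel genes on each array, with 5 THC and 5 vehicle arrays at 12 months and 3 of each at 2 months, the group mean (line), SD (bars), slide (symbol) and probes that were not detected (open symbols). The old THC and old vehicle arrays overlap for every gene shown, and the 3 young vehicle arrays hold the highest Cacng7 values.

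By role, the 3 sodium channel beta subunits had higher means in old THC mice, at 0.15 to 0.38, while 5 of the 6 gamma genes had lower ones, from −0.52 for Cacng3, with Cacng4 as the exception. Over all probes 48.8% were above 0. Of these genes, Scn2b was at −0.03 with the slide as a fixed block, and its other probes lay at 0.26 and 0.006. The Cacng4, Cacng7 and Cacng8 probes were detected on only 7, 6 and 3 arrays. Within slides 1 and 4, Cacng5 differed by 0.94 and −0.30 and Cacng7 by −0.49 and 0.07. Cacng2, Cacng3 and Cacng8 were below 0 on both of these slides. Both alpha-2-delta genes lay near 0 at −0.05 and −0.01. The sodium channel pores ran from −0.22 to 0.09. In the fit without the slide as a block, the data bounded the difference closely for several genes. All 95% intervals given here and below come from that fit. With the block, the differences of Cacng3 and Cacna1d given above were larger. The 95% interval for Scn2a, the sodium channel of excitatory neurons, ran from −0.31 to 0.20, and that for Scn8a, which sets the threshold of the action potential, from −0.41 to 0.06. For Scn1a, the sodium channel of fast-spiking interneurons, it ran from −0.31 to 0.45. Of the 21 genes detected on all arrays, 9 had intervals within 0.5 log2 units on both sides of 0 and 20 within 1. Scn4b was the exception, at 0.38 with an interval from −0.58 to 1.33.

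**Figure D4:**
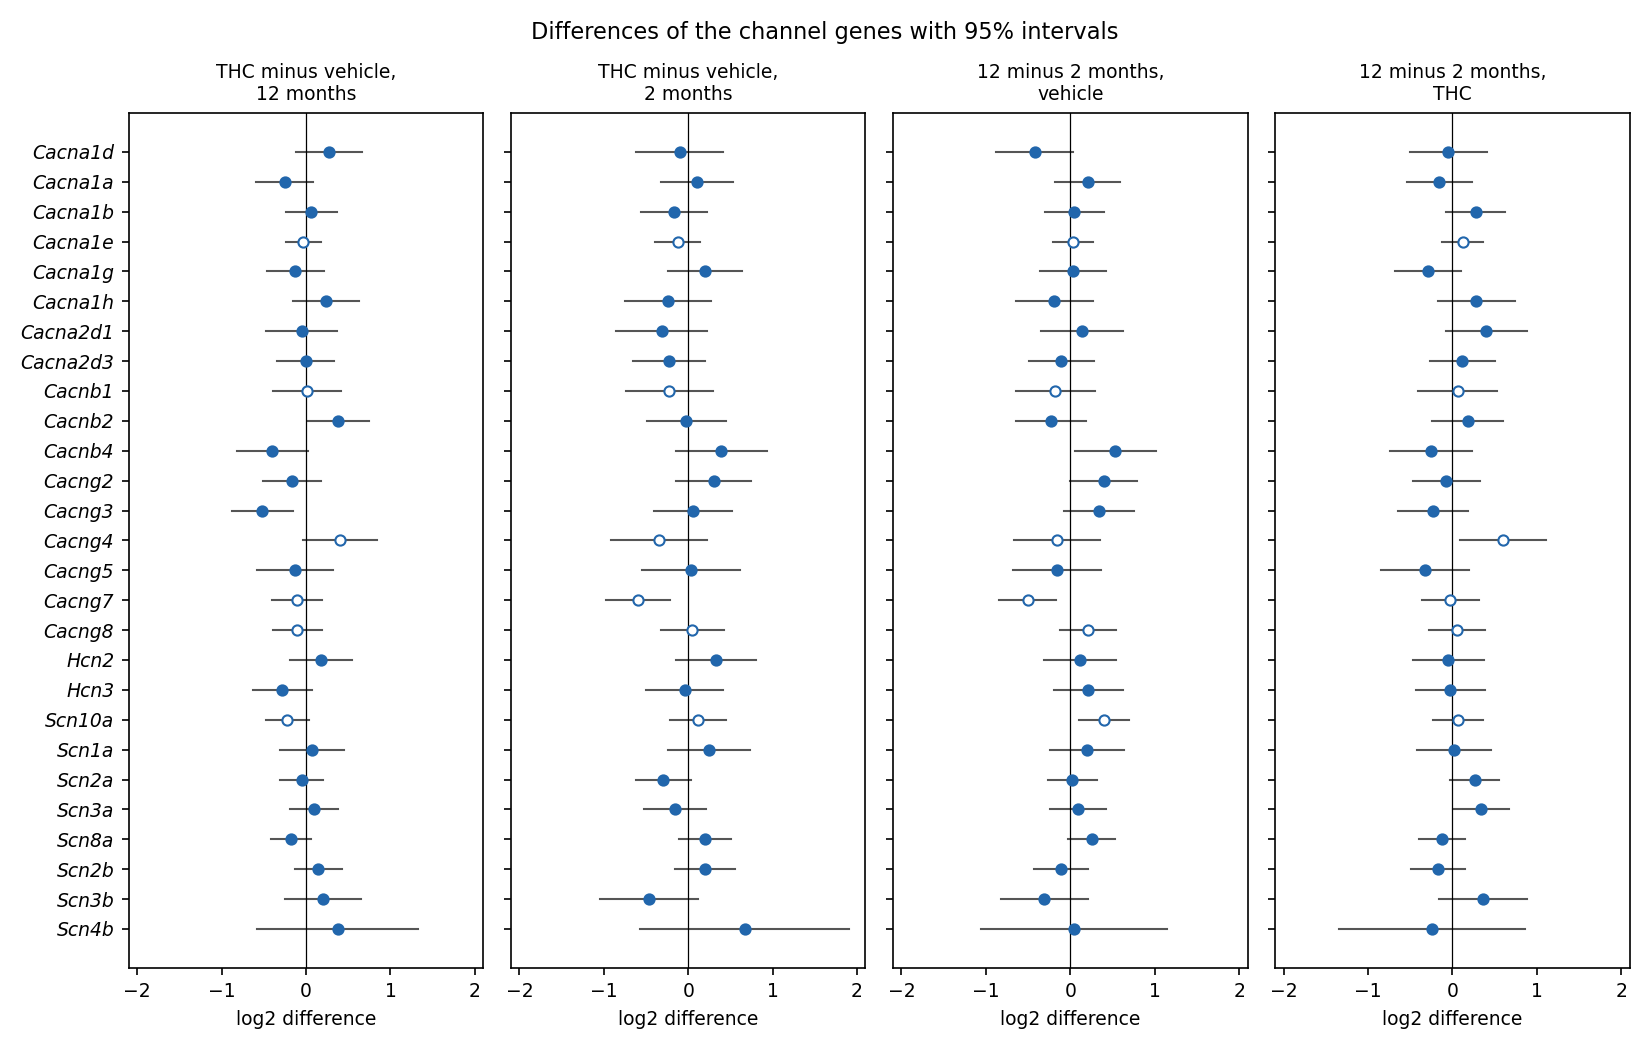
Log2 differences of the 27 channel genes with 95% intervals in 4 comparisons, ordered by role, with open circles for genes detected on fewer than 16 arrays. Apart from Scn4b the intervals at 12 months stay within 1 log2 unit of 0, and no gene passed the adjusted threshold. The fit did not hold the slide as a block.

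At 2 months the same question was put to young mice, with 3 arrays a group. With limma 0 of the 27 genes passed, as did 0% of all probes, and the 10 named genes had adjusted p values from 0.781 to 0.831. One gene, Cacng7, had an unadjusted p under 0.05, or 3.70% of the 27, against 6.12% of all probes. Blocking on the slide gave 3, Cacng7, Scn2a and Scn4b, or 11.1%, against 10.1% of all probes. For 3 genes, Cacng7, Scn3b and Cacna2d1, the THC arrays lay below all vehicle arrays. Over all probes groups did not overlap for 6.13% in that direction and 11.6% in both. The median difference over the channel genes was −0.0237, with 13 genes above 0, against 49.6% of all probes.

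Cacng7 encodes a gamma subunit that also acts on AMPA receptors. It was detected on 0 of 3 young THC arrays, at 4.61, 4.76 and 4.57, and on 3 of 3 young vehicle arrays, at 5.60, 5.09 and 5.03, which is at least 1.28-fold higher in vehicle mice. Old THC mice lay at 4.47, 4.72, 4.503, 4.59 and 4.83 and old vehicle mice at 4.92, 5.00, 4.45, 4.54 and 4.76. The 3 young vehicle arrays were thus the highest of all 16. Scn3b, a sodium channel beta subunit, lay at 7.86, 7.92 and 7.61 in young THC mice, against 8.56, 8.06 and 8.16 in young vehicle mice, a difference of −0.47 ± 0.27, and its other 3 detected probes were at −0.34 to −0.22. Scn2a lay at 9.30, 9.78 and 9.35 in young THC mice, against 9.79, 9.85 and 9.68 in young vehicle mice, and young THC replicate 2 reached into the vehicle range. Its difference was −0.30 ± 0.15, while the other detected probes of Scn2a lay at 0.02, −0.21 and 0.17. Cacna2d1, at 9.91, 9.97 and 10.05 in young THC mice and 10.13, 10.08 and 10.66 in young vehicle mice, differed by −0.31 ± 0.25.

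On the higher side, Cacnb4 lay at 10.49, 10.67 and 10.77 in young THC mice, against 10.72, 10.05 and 9.99 in young vehicle mice, a difference of 0.39 ± 0.26. Hcn2, the HCN channel found throughout the forebrain, lay at 10.90, 10.12 and 10.32 in young THC mice and at 10.07, 9.92 and 10.35 in young vehicle mice. It differed by 0.33 ± 0.22, which was carried by young THC replicate 1, since without that array it was 0.11. Cacng2, the TARP also called stargazin, lay at 6.26, 6.20 and 6.06 in young THC mice and at 6.14, 5.89 and 5.59 in young vehicle mice, a difference of 0.30 ± 0.21. Both groups overlapped for each of these 3 genes. Scn8a differed by 0.20 ± 0.15, with its other probe at −0.30, and Scn2b by 0.20 ± 0.17. Cacng4 was detected on 0 of 3 young THC and 2 of 3 young vehicle arrays, at least 1.02-fold higher in vehicle mice. Only 2 of the 21 genes detected on all arrays had intervals within 0.5 log2 units of 0, and 19 within 1.

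The difference between the THC responses at 12 and at 2 months was tested as an interaction. With limma 0 of the 27 genes passed, as did 0% of all probes, with adjusted p values from 0.949 to 0.978 for the 10 genes named by p. Unadjusted, 3 genes (11.1%) had a p under 0.05, against 5.21% of all probes, and 13 genes were above 0, against 48.5% of all probes. With the slide as a block 5 genes, Cacna1d, Cacnb4, Cacng3, Cacng4 and Scn3b, had such a p, or 18.5%, against 10.4% of all probes. Cacnb4 had a difference of −0.79 ± 0.32, being lower after THC in old and higher in young mice, and Cacng4 and Cacng7 differed by 0.75 ± 0.34 and 0.48 ± 0.23, both resting on values near the background. Its 2 other detected probes put Cacnb4 at −0.53 and 0.33. Cacng3 was at −0.57 ± 0.28, Scn8a at −0.37 ± 0.18, Cacng2 at −0.47 ± 0.27 and Scn10a at −0.34 ± 0.20. Scn3b was at 0.67 ± 0.35, with its other 3 probes at 0.57 to 0.65, Cacna1h at 0.47 ± 0.30 and Cacnb2 at 0.41 ± 0.28. The other Scn8a probe went the other way at 0.41.

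Vehicle mice of 12 and of 2 months were compared to ask how channel expression differs with age without the drug. It shares the old vehicle arrays with the drug comparison at 12 months and the young vehicle arrays with that at 2 months, so its values are not independent of theirs. With limma 0 of the 27 genes passed, as did 0% of all probes, and the named genes had adjusted p values from 0.995 to 1.00. Unadjusted, 3 genes (11.1%) had a p under 0.05, against 4.56% of all probes. These were Cacng7 on the lower side and Scn10a and Cacnb4 on the higher side. With the slide as a block Cacna1d and Cacng3 joined them, giving 18.5%, against 8.7% of all probes. The median difference was 0.0477, against −0.00205 over all probes, with 17 genes above 0, or 63.0%, against 49.5% of all probes.

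Old vehicle mice overlapped young vehicle mice for 26 of the 27 genes, the exception being Cacng7, which was lower in old mice with a difference of −0.50 ± 0.16. Over all probes groups did not overlap for 1.22% in that direction and 2.66% in both. The differences of Cacng7 within slides 1, 2 and 4 were −0.64, −0.59 and −0.27, and its probe was detected on 2 of 5 old and 3 of 3 young vehicle arrays. Scn10a was detected on 4 of 5 old and 0 of 3 young vehicle arrays, where it lay at 4.42, 4.66 and 4.32. By group means it was at least 1.01-fold higher in old mice. Cacnb4 differed by 0.53 ± 0.23, but its other detected probes lay at 0.04 and −0.00262. Its difference was 0.27 after adding the choroid plexus mean and 0.29 after adding the neocortex mean to the fit. Cacng2 lay at 6.41, 6.22, 6.55, 5.73 and 6.44 in old vehicle mice and differed by 0.40 ± 0.19, and of these only replicate 4 lay inside the young vehicle range. Cacna1d, an L type channel that opens at more negative potentials than Cacna1c, lay at 6.16, 5.76 and 5.40 in young vehicle mice, of which only 5.40 lay within the range of the old vehicle values given above. All 3 detected Cacna1d probes were lower, at −0.42 ± 0.22 for the brightest and −0.34 and −0.37 for the others, and within slides 1, 2 and 4 it differed by −0.62, −0.47 and −0.30. Without young vehicle replicate 1 its difference was −0.23, and without background correction −0.15.

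The remaining named genes of this comparison were Scn8a at 0.25 ± 0.13, Cacng3 at 0.34 ± 0.20 with its other probe at 0.29, Scn3b at −0.31 ± 0.25, Cacnb2 at −0.23 ± 0.20 and Cacna1h at −0.19 ± 0.21. Each of the 5 sodium channel pores had a higher mean in old than in young vehicle mice, from 0.02 for Scn2a to 0.40 for Scn10a. The Scn2a interval ran from −0.27 to 0.31 and the Scn8a interval from −0.02 to 0.53. Both detected HCN genes were also above 0, at 0.11 and 0.21, as were the 3 P/Q, N and R type pores, at 0.03 to 0.21. Elsewhere 3 of 6 gamma, 1 of 3 calcium channel beta and 1 of 3 sodium channel beta genes were above 0. For the alpha-2-delta, T type and L type genes it was 1 of 2, 1 of 2 and 0 of 1. Over all probes it was 49.5%. Signs varied by probe, with other Scn2a probes at 0.22, 0.06 and −0.36 and other Cacna1b probes at −0.18 and 0.18.

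**Figure D5:**
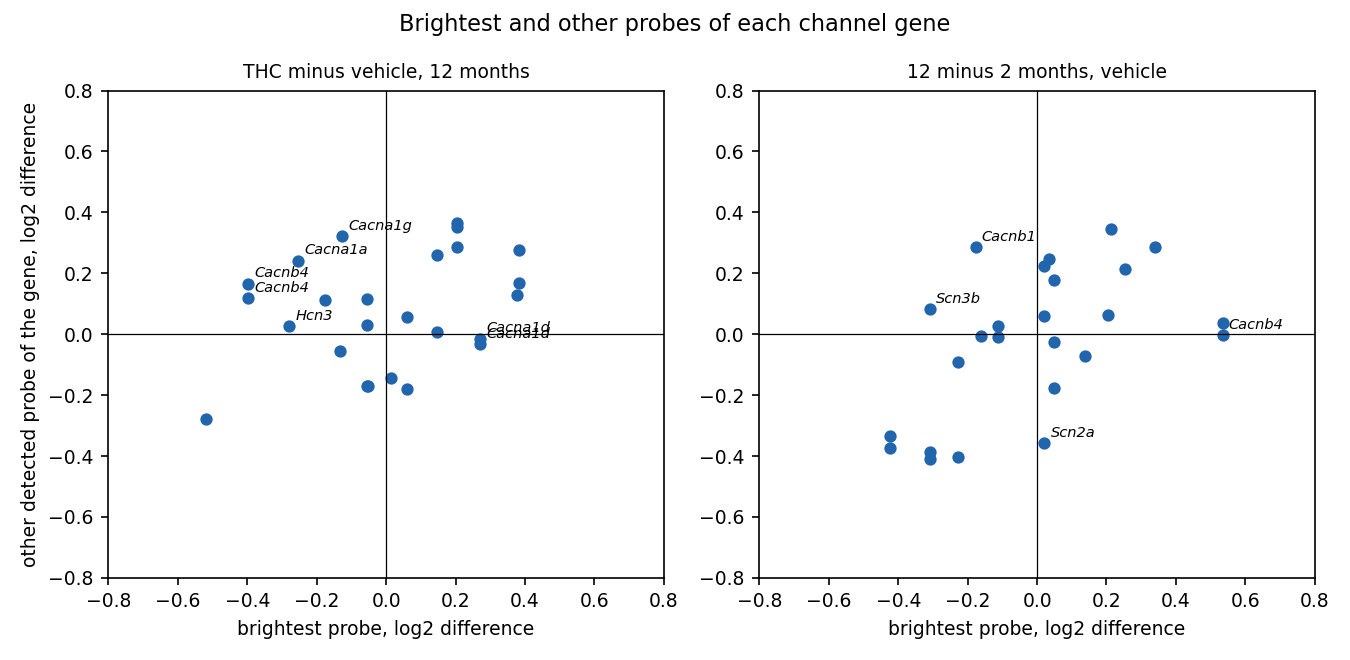
Log2 difference of the brightest probe of a channel gene (horizontal) against each other detected probe of the same gene (vertical), for 25 other probes of 16 genes, in 2 comparisons. At 12 months 13 of 25 other probes share the sign of the brightest, and for age in vehicle mice 17 of 25.

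In THC mice the old and the young group were compared in the same way. With limma 0 of the 27 genes passed, as did 0% of all probes, with adjusted p values from 0.598 to 0.871 for the named genes. Unadjusted, 2 genes (7.41%) had a p under 0.05, against 7.33% of all probes, and 14 genes were above 0, against 46.8% of all probes. Blocking on the slide gave 3, Cacng3, Cacng4 and Scn3a, or 11.1%, against 12.8% of all probes. Cacng4 was detected on 4 of 5 old THC and 0 of 3 young THC arrays, at 4.66, 4.46 and 4.56 in the young, and was at least 1.21-fold higher in old THC mice. It was the 1 gene of the 27 whose groups did not overlap, against 3.67% of all probes in that direction and 6.37% in both. Scn3a, a sodium channel most abundant in the developing brain, lay at 8.46, 8.50, 8.001, 8.02 and 8.32 in old THC mice and at 7.88, 7.84 and 8.03 in young THC mice. Its difference was 0.34 ± 0.16, and the groups overlapped only through young THC replicate 3.

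Scn2a differed with age in THC mice by 0.26 ± 0.14, Cacna2d1 by 0.40 ± 0.23 and Cacna1b by 0.28 ± 0.16. For Scn2a the other detected probes disagreed, at −0.13, 0.47 and −0.41, and the other Cacna1b probes were at 0.16 and 0.29. Cacna1g lay at 8.06, 8.06, 8.09, 8.47 and 8.17 in old THC mice, against 8.74, 8.38 and 8.25 in young THC mice, and only old replicate 4 reached the young range. On the lower side were thus Cacna1g at −0.29 ± 0.18, Cacng5 at −0.32 ± 0.25, Cacng3 at −0.23 ± 0.20, Scn2b at −0.17 ± 0.15 and Cacnb4 at −0.25 ± 0.23. The other detected Cacnb4 probes disagreed, at −0.49 and 0.32, as did those of Scn2b, at −0.31 and 0.04. Other probes of Cacna1g, Cacng5 and Cacng3 were at −0.33, −0.15 and −0.00235. Without young THC replicate 2 the Cacng3 difference was 0.04, the opposite sign.

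Old THC mice were also set against young vehicle mice, which asks whether treated old animals resemble untreated young ones and shares both groups with comparisons above. With limma 0 of the 27 genes passed, against 0.00442% of all probes, and the 10 named genes had an adjusted p of 0.996. Only Cacng7 had an unadjusted p under 0.05, or 3.70% of the 27, against 4.48% of all probes, at −0.62 ± 0.16, with all old THC arrays below the young vehicle arrays. Blocking on the slide gave 4, Cacng3, Cacng4, Cacng7 and Scn4b, or 14.8%, against 10.5% of all probes, and within slides 1 and 4 Scn4b differed by 0.57 and 1.88. Over all probes groups did not overlap for 2.19% in that direction and 3.7% in both. Above 0 were 15 of the 27 genes, against 48.7% of all probes. Hcn2 was at 0.28 ± 0.20, Scn1a at 0.27 ± 0.21, Scn10a at 0.18 ± 0.14, Cacng2 at 0.23 ± 0.19 and Scn3a at 0.18 ± 0.16. Cacng5, a gamma subunit enriched in the CA2 field of the hippocampus, was at −0.29 ± 0.25, Cacng3 at −0.18 ± 0.20, Cacnb1 at −0.16 ± 0.22 and Cacna1d at −0.15 ± 0.22. Of the 21 genes detected on all arrays, 20 had intervals within 1 log2 unit of 0, again all but Scn4b.

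Genes that act with these channels were examined as 5 further lists, and 0 of their tested genes passed in any of the 6 comparisons with limma. Per list, comparison and direction, 0 to 3 genes had an unadjusted p under 0.05. Over all probes 4.48% to 7.33% per comparison had such a p in either direction, and 4.77% for THC at 12 months. Among calcium channel partners, 11 of 16 genes were tested, and at 12 months 1 of them was lower after THC at an unadjusted p under 0.05, the adaptor gene Stac3 at −0.29 ± 0.12, with Rims2, a scaffold of the release site, at −0.34 ± 0.17, and with Rem2, a small GTPase that inhibits calcium channels, at 0.46 ± 0.35, and the calmodulin gene Calm3 at 0.13 ± 0.12. In vehicle mice Rem2 was lower with age at −0.97 ± 0.40. Other AMPA receptor auxiliary genes, which work beside the TARPs, had 3 of 6 genes tested. At 12 months Cnih3 and Gsg1l were lower after THC, at −0.39 ± 0.16 and −0.64 ± 0.30, and Shisa7 was at 0.27 ± 0.18. Both lower genes had an unadjusted p under 0.05 and an adjusted p of 0.916.

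Sodium channel partners and genes of the axon initial segment, with 9 of 12 tested, had 0 genes at an unadjusted p under 0.05 at 12 months, with Sptbn4, a spectrin of that segment, at 0.12 ± 0.19, the adhesion genes Cntn1 and Nrcam at 0.06 ± 0.14 and −0.03 ± 0.10, and Fgf12, a regulator of sodium channel inactivation, at −0.10 ± 0.19. Partners of HCN channels and of the sodium leak channel NALCN, 5 of 5 tested, also had 0, with Pex5l, the HCN trafficking subunit, at −0.13 ± 0.23, Nalcn at −0.01 ± 0.18, Unc79 at 0.03 ± 0.12 and Kcne2, also a gene of the choroid plexus, at 0.47 ± 0.61. Of the other calcium entry, store and extrusion genes 20 of 22 were tested. There the calcium sensor gene Stim2 was at 0.46 ± 0.17 and the calcium release channel gene Itpr3 at −0.42 ± 0.18 at 12 months, with Atp2b1, a calcium pump, at 0.38 ± 0.22 and Orai1, a store-operated calcium channel, at −0.16 ± 0.13, all with an adjusted p of 0.916. Stim2 was at −0.61 ± 0.20 for age in vehicle mice, a comparison that shares the old vehicle arrays.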

How the data were processed

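Total RNA was labelled as biotinylated cRNA and hybridized to 16 Illumina arrays, per the labels' protocols. The deposited scanner table holds log2 intensities without normalization between arrays and, per the file headers, a detection p-value for each probe and array. In the deposited series matrix the log2 values carry the authors' normalization, which by its values is a quantile one. Partek is named in the submitters' processing notes, and further steps of theirs are not stated there. In the first array 26 detection p-value cells held text. The detection filter took them as missing, and background correction used interpolated values.

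Background correction and quantile normalization used the neqc function, with an offset of 16 (R 4.3.3, limma 3.58.1). Figures were drawn with matplotlib 3.10.9. Of 45281 probes, 22625 were detected (p under 0.05) on 3 or more arrays. These were fitted with limma, 1 mean per group over all 16 arrays, with two-sided p-values and Benjamini-Hochberg adjustment over all tested probes at 0.05. Where a gene was detected on 0 arrays of a group, the fold is a lower bound against the lowest detected signal of each array. That bound compares group means and takes no account of the spread between arrays. In each comparison the 5 channel genes with the smallest p in each direction are named, and from the other lists up to 2 in each direction at 12 months. Members and lists were chosen with earlier results of these data known. All 36 genes matched the RefSeq gene table by Entrez ID, with 0 symbols changed. The fit was tested on simulated data. Alternatives were other normalization, filters, variance models, slide terms, marker covariates, other probes and leaving out arrays.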

Additional observations from a re-analysis of the deposited data

Results flagged for a closer look

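In the groups of 5 arrays, 5 of the 54 combinations of gene and group had 1 array far from the other 4 by Dixon's test at the 95% level, a test that chance alone meets in about 1 in 20 groups. In old THC mice, Cacna1g was highest on replicate 4, at 8.47 against 8.17 on the nearest array, and Cacng8 was highest on replicate 2, at 5.12 against 4.67. In old vehicle mice, Cacnb4 was lowest on replicate 3, at 10.2 against 10.9, Scn10a was lowest on replicate 4, at 4.47 against 4.89, and Scn1a was highest on replicate 5, at 10.3 against 9.68.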

How the results depend on the processing

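No channel gene passed the adjusted threshold under any alternative in any of the 6 comparisons, with limma throughout, while over all probes 31 passed for THC at 12 months with the slide as a fixed block, against 0 without it. With that block the channel genes at an unadjusted p under 0.05 numbered 3 to 6 per comparison, against 1 to 3 without it. As shares these were 11.1% to 22.2% of the 27 with the block, against 8.7% to 12.8% of all probes. Without the block they were 3.70% to 11.1% of the 27, against 4.48% to 7.33% of all probes. Differences of dim probes near the background are compressed. No paired analysis was possible because the labels carry no replicate numbers, so matching was by slide only. The replicate numbers used here count the arrays of each group in the order of the samples. The neocortex covariate was added after the data had been seen.

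The median difference over the channel genes depended on the setting, and in each case the cause was not tested. For THC at 12 months (−0.0352) it was 0.0855 with the next brightest probes, −0.12 within slide 4 and 0.0342 with the neocortex covariate. For THC at 2 months (−0.0237) it was 0.0896 without slide 1, 0.0432 with array weights, 0.0511 with the next brightest probes, −0.14 with the thalamus covariate and 0.13 within slide 2, and −0.0578 to 0.0896 when 1 array was left out. For age in vehicle mice it was −0.0483 within slide 1 and 0.21 within slide 4, and for age in THC mice −0.0263 to 0.11 when 1 array was left out. For old THC against young vehicle it was 0.12 with the next brightest probes. For the difference of the THC responses it was 0.0239 with array weights, 0.0877 with the next brightest probes, 0.0620, 0.0953 and 0.0129 with the thalamus, choroid plexus and neocortex covariates, −0.17 within slide 4 and −0.11 to 0.0785 when 1 array was left out.

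Signs of single genes turned as follows. With the next brightest probe, Cacna1a was 0.24, Cacna1d −0.0323, Cacnb4 0.12 and Hcn3 0.0259 for THC at 12 months, Scn8a −0.30 at 2 months and 0.41 for the difference of responses, and Cacnb1 0.14 and Cacng3 0.00906 for old THC against young vehicle. With the slide as a fixed block, Scn2b was −0.0334 at 12 months, and Cacna1d 0.20 and Cacng5 0.11 for old THC against young vehicle, where the random block gave Cacna1d 0.0322. There Cacnb1 was 0.0239 with array weights and 0.0906 without slide 1. Within slide 1, Hcn3 was 0.0298 and Scn2b −0.14 at 12 months, Cacnb2 0.14 for age in vehicle mice, and Cacng2 −0.37 and Cacng5 0.27 for old THC against young vehicle. Within slide 2, Cacna1h was 0.40 and Scn3b 0.00685 for age in vehicle mice. Within slide 4, Hcn2 was −0.0303 and Scn2b −0.0496 for THC at 2 months, Cacna1b −0.00121, Cacna2d1 −0.11 and Cacng3 0.0371 for age in THC mice, and Cacna1d 0.39, Cacnb1 0.00509, Cacng5 0.0261, Hcn2 −0.0925 and Scn1a −0.16 for old THC against young vehicle. When 1 array was left out, Cacng3 ran from −0.37 to 0.0379 for age in THC mice, and Cacna1d from −0.34 to 0.0405 and Cacnb1 from −0.30 to 0.00445 for old THC against young vehicle.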
